A study of Mus musculus with 24 samples.

Results

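Epiblast stem cells (EpiSCs) are pluripotent cells grown in culture from the postimplantation epiblast, and here their RNA was set against epiblast taken from mouse embryos, the tissue of origin of the line. Of the 24 arrays of the series, 4 entered this comparison by their labels: 2 of EpiSCs and 2 of epiblast, both hybridised with PCR-amplified RNA. All 4 samples are labelled as biological replicates of C57BL/6 mice. Per the labels, the EpiSCs were derived from epiblast at embryonic day 5.75, and each sample started from 5 ng of total RNA, the amount in 500 cells, amplified by 22 cycles of PCR. The labels of the epiblast samples give no stage. The design text of the series names pre-gastrulating epiblast of embryonic day 5.5 to 6.0 as its reference. The sources used here do not give how many lines, embryos or litters stand behind the replicates, how the epiblast was cut out, or the medium and feeder cells of the EpiSCs. P-values therefore measure the spread between arrays, which may be technical, and it was estimated over all 6 amplified groups.

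The epiblast is the cup of pluripotent cells from which the whole body of the mouse embryo forms. It passes in a short time from the naive state of the blastocyst, held by factors such as Klf4, Esrrb and Zfp42, to a state ready to form germ layers, marked by Fgf5, Otx2 and Pou3f1. EpiSCs are commonly kept in activin and FGF, and are described as primed: they keep Pou5f1 (Oct4), Sox2 and Nanog while carrying RNA of lineage regulators.

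Intensities are the deposited linear values, in arbitrary units. A gene was tested where at least 2 of the 12 amplified arrays exceeded an intensity of 24.04, the 40th percentile of those arrays, called here the filter level. Values under 4.20 were raised to it before log2 was taken. The fit was limma's moderated linear model with 1 mean for each of the 6 amplified groups. A gene was called where the p adjusted by the Benjamini-Hochberg method over 15608 genes was under 0.05 and the groups differed by at least 1 on the log2 scale. All adjusted p-values below come from that fit unless another is named. Errors are standard errors of the log2 difference with n = 2 arrays a group. "At least" folds are measured against the filter level where the mean of the lower group lay under it.

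The EpiSC arrays stood apart from each other more than any other pair of replicates in the series. Over the tested genes they correlated with r = 0.911, against 0.969 for the epiblast arrays, and 728 genes (4.66%) differed at least 4-fold between them, against 124 genes (0.794%) between the epiblast arrays. The 2 unamplified EpiSC arrays of the series correlated with r = 0.989. The ratio of 5′ to 3′ probe sets, a sign of RNA or cDNA length, was 0.0996 and 0.131 for Actb on the EpiSC arrays and 0.0704 and 0.157 on the epiblast arrays. For Gapdh it was 0.758 and 0.860 against 0.519 and 0.982. The 10 defining markers of pluripotent epiblast summed to 20747 and 22507 in EpiSCs and 29598 and 32735 in the epiblast. The lower sum does not hold for each marker. Of the 10, Nanog and Sox2 were called higher in EpiSCs and 2 were called lower. The other 6, Pou5f1 and Fgf5 among them, were not called. The defining markers of blood and vessels summed to 183 to 261 on the 4 arrays. The part of these array differences in the results was not tested, and the range of a count without single arrays is given with most of the gene groups.

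**Figure D1:**
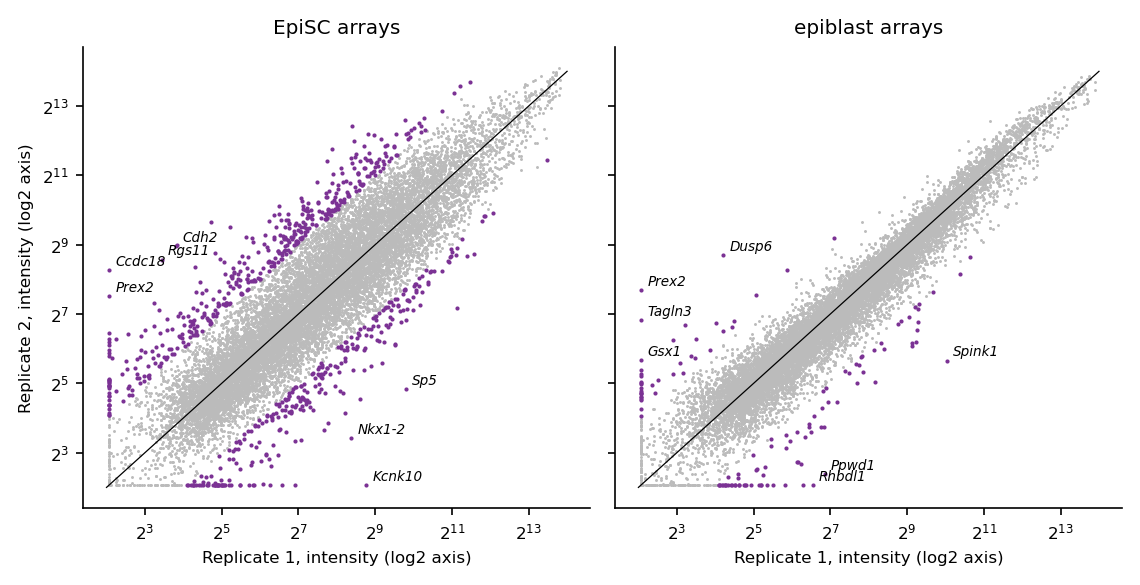
Intensity of every tested gene on replicate 2 against replicate 1 (log2 axes, values under the floor raised to it) for the EpiSC arrays and the epiblast arrays. Purple points differ at least 4-fold; there are 728 of them on the EpiSC side and 124 on the epiblast side.

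EpiSCs and epiblast differed in 1823 of 15608 genes, or 11.7%. In EpiSCs 1400 genes were higher (8.97% of those tested) and 423 were lower (2.71%). The counts of each gene list below are to be read against these shares. All 1823 had arrays that did not overlap between the groups, a separation that 49.1% of all tested genes showed. Without overlap the sign is bound to be the same within replicate number 1 and within replicate number 2. Where separation of called genes is given below, it describes them and adds no support to the call. A log2 difference of at least 1 within both numbers was found for 1478 of the 1823. The median difference over all genes was 0.06 and moved to -0.12 under quantile normalization, where 1073 genes were called higher and 639 lower. Without an array, here and below, its group has 1 array left and adds nothing to the estimate of spread. Calls in such fits rest on the spread of the other groups. Leaving out EpiSC replicate 1 raised the count to 3444, and leaving out EpiSC replicate 2 gave 1519. It was 889 when the first epiblast array was left out and 845 when the second was. The calls of 676 genes, 530 higher and 146 lower, held without each of the 4 arrays in turn. With only the 4 arrays in the fit and 2 residual degrees of freedom, 459 genes were called, 455 of them among the 1823, and 104 of 192 called genes of the lists and rankings below lost their call.

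**Figure D2:**
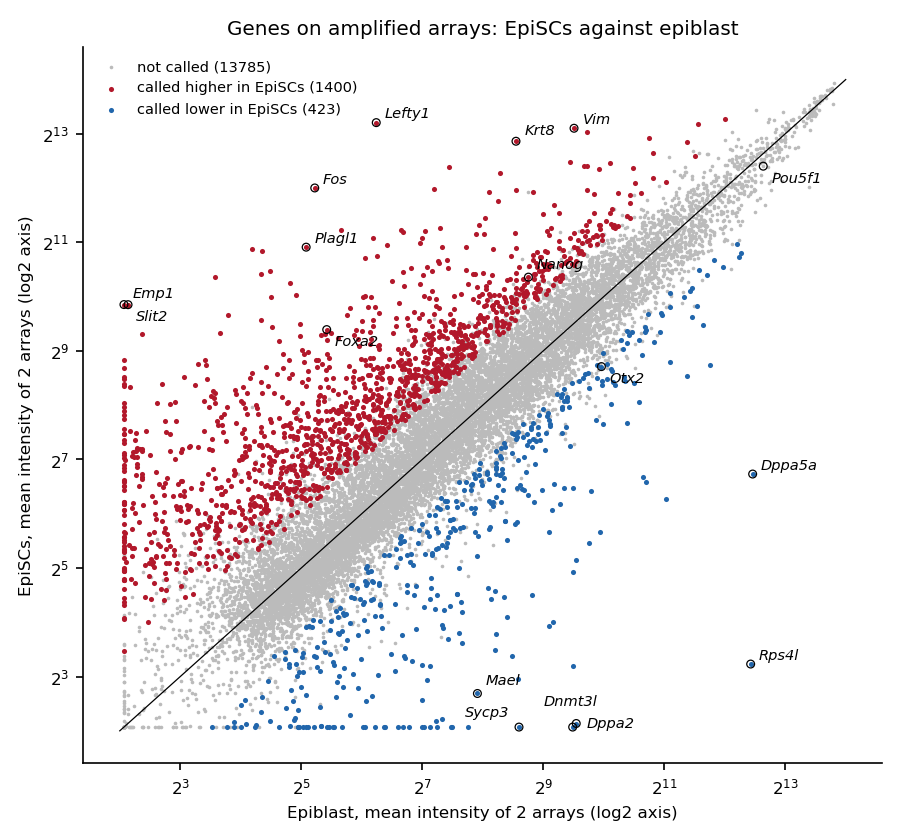
Mean intensity (geometric mean of 2 arrays, log2 axes) of each tested gene in EpiSCs against epiblast, with the line of equal values. Red points are the 1400 genes called higher in EpiSCs and blue points the 423 called lower; Pou5f1 lies beside the line, and Rps4l, Dnmt3l and Dppa2 lie farthest below it.

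The 12 genes with the largest rise in EpiSCs were low or near background in the epiblast. Emp1, a membrane protein of epithelial cells, read 946 and 906 on the EpiSC arrays and 1 on both epiblast arrays, at least 38.5-fold (log2 difference 7.79 ± 0.62, adjusted p = 7.34e-05). Slit2, a secreted guidance cue, read 807 and 1059 against 1 and 4.61. Both epiblast arrays lay under the filter level for each gene and both EpiSC arrays far above it. A second probe set of Emp1 above the filter level differed by -0.84, so the probe sets of this gene disagree.

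Lefty1, a secreted inhibitor of Nodal, reached 7528 and 11871 in EpiSCs and 114 and 50.2 in the epiblast, a 125-fold difference (6.97 ± 0.47, adjusted p = 3.19e-05). Aplnr, the receptor of apelin found in early mesoderm, read 2509 and 689 against 8.18 and 17.5. Actc1, cardiac actin, read 1107 and 362 against 2.96 and 6.32. Acta1, skeletal muscle actin, read 908 and 143 against 1 on both epiblast arrays. In Aplnr, Actc1 and Acta1 EpiSC replicate 1 was several-fold above replicate 2, yet both lay far above the epiblast.

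The others were Anxa1, Tgfbi and Arfgap3, and Fos, Egr1 and Zeb1, which are described with their gene groups below. Anxa1, a calcium-dependent membrane-binding protein, read 1841 and 1947 against 24.03 and 13.9, at least 78.8-fold. Tgfbi, a matrix protein induced by TGF-beta, read 581 and 295 against 1 and 3.88. Arfgap3, a regulator of vesicle traffic, read 280.1 and 734 against 1 and 2.59. The calls of all 12 genes held without each of the 4 arrays.

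Among the 12 largest falls were genes of pluripotent and germ cells that EpiSCs carried at background. Rps4l, which codes for a ribosomal protein S4-like product, fell most, from 5999 and 5068 in the epiblast to 19.4 and 4.54 in EpiSCs, at least 229-fold (-9.20 ± 0.52, adjusted p = 1.77e-05). Dnmt3l, the cofactor of the de novo DNA methyltransferases, fell from 953 and 540.1 to 4.18 and 1 (-7.42 ± 0.37). Dppa2, a chromatin protein of pluripotent cells, fell from 790.4 and 707 to 4.18 and 4.60 (-7.41 ± 0.27, adjusted p = 1.43e-06). In each of these genes both epiblast arrays were far above the filter level and both EpiSC arrays below it.

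Dppa5a, an RNA-binding protein of pluripotent cells, read 6451 and 4933 in the epiblast and kept a measured level of 113 and 100.2 in EpiSCs, a 53.1-fold difference (-5.73 ± 0.21). Fmr1nb read 854 and 604 against 7.25 and 11.6. Apoc1, an apolipoprotein, read 611 and 241 against 14.4 and 1. Asb15, Platr10, a noncoding RNA, and Prr23a3 read 1 or 1.06 on every EpiSC array and between 122 and 349 in the epiblast. Sycp3, Hormad1 and Mael completed the 12 and are described with the meiotic genes below. The calls of all 12 falls held without each array.

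On the 2 unamplified EpiSC arrays of the series, which were no part of the test, all of these 12 genes but Dppa5a and Apoc1 also read under the filter level of the amplified arrays. Dppa5a read 44.1 and 41.6 there, and Apoc1 27.3 and 39.2. Rps4l and Dnmt3l were at 1 on both. Intensities with and without amplification are not on a common scale: Hand1 read between 13399 and 15298 on the 4 amplified arrays and 267 and 233 on unamplified EpiSC arrays.

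**Figure D3:**
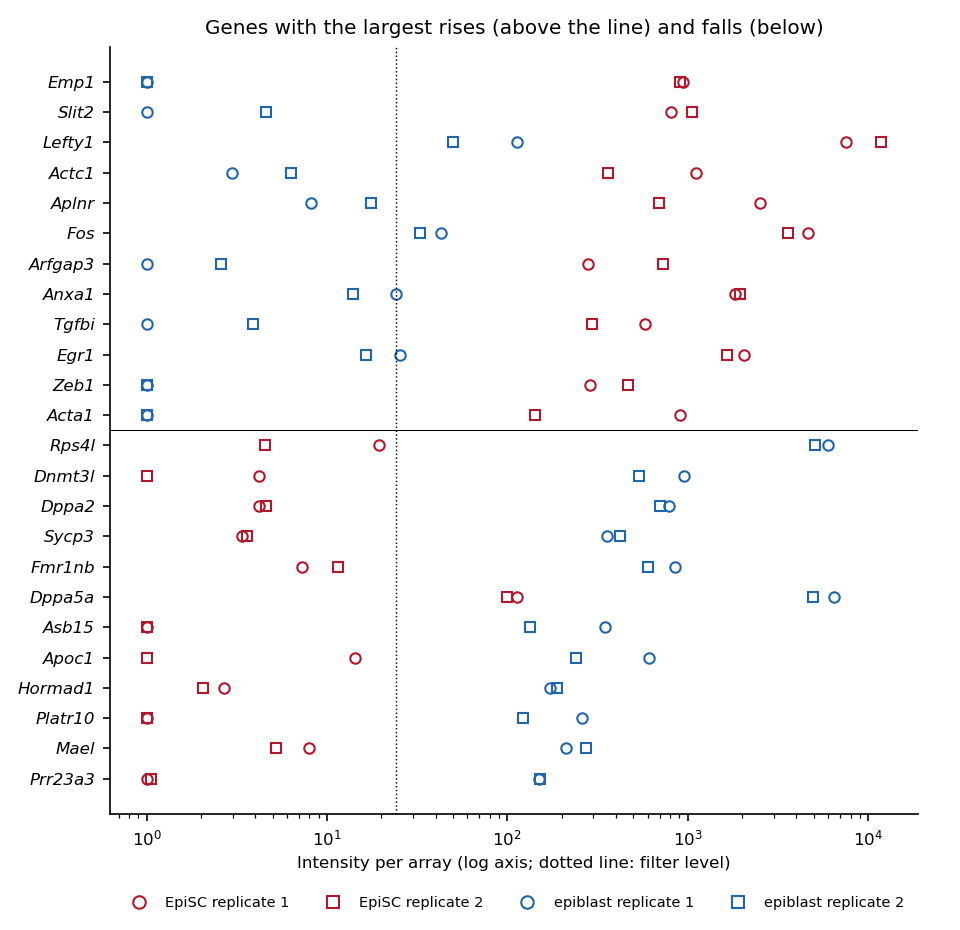
Intensity on each of the 4 arrays (log axis) for the 12 genes with the largest rise and the 12 with the largest fall in EpiSCs whose arrays did not overlap. Red symbols are EpiSC arrays, blue symbols epiblast arrays, and the dotted line is the filter level of 24.04; the arrays of the groups do not overlap in any of the 24 genes, and replicates lie far apart in some, such as Apoc1 in EpiSCs.

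The core pluripotency factors moved in both directions. Pou5f1 read 5183 and 5666 in EpiSCs and 5308 and 7640.2 in the epiblast (-0.23 ± 0.26, adjusted p = 0.64). Nanog was higher in EpiSCs, at 861 and 2005 against 424 and 440.2 (3.04-fold, adjusted p = 0.0167), and Sox2 was 2.01-fold higher, at 2421 and 3209 against 1376 and 1404 (adjusted p = 0.0431). Each of these calls was lost without EpiSC replicate 2 and without either epiblast array, and with the 4 arrays alone. That of Sox2, at the threshold of 1, was also lost with median centring, quantile normalization, log2(intensity + 16), no filter and no intensity trend. Of 15 tested genes of the list, 2 rose and 6 fell, with a median difference of -1.23 against 0.06 over all genes.

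The 6 falls were Dppa2, Dppa4, Foxd3, Utf1, Gdf3 and Zscan10. Dppa4, the partner of Dppa2, fell 27.3-fold, from 2014 and 2193 to 120.0 and 49.4 (-4.77 ± 0.43, adjusted p = 0.000126). Utf1, a chromatin factor of undifferentiated cells, fell from 3334 and 3593 to 1010.4 and 179.9. Zscan10, a zinc finger protein bound up with Oct4 and Sox2, fell from 1585 and 1605 to 639 and 367. No array of Dppa4, Utf1 or Zscan10 overlapped between groups, although EpiSC replicate 1 was well above replicate 2 for Utf1. Without a given array between 3 and 8 genes of the list were called lower, and 8 with the replicate block, which added Lin28a (adjusted p = 0.0461) and Dnmt3b (0.0275). The calls of Dppa2, Dppa4 and Zscan10 held without each, while those of Utf1 and Gdf3 were lost without either epiblast array and that of Foxd3 also without EpiSC replicate 2.

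Factors of the naive state split into risers and fallers: of 18 tested, 5 rose and 6 fell. The fallers were Dppa5a, Zfp42, Fgf4, Dppa3, Esrrb and Tcl1. Zfp42 (Rex1), a marker of naive cells, read 308 and 259.8 in the epiblast and 25.7 and 17.8 in EpiSCs, at least 11.8-fold lower (-3.72 ± 0.33, adjusted p = 0.000114). Dppa3 (Stella), an oocyte and germ cell protein, read 182 and 141 against 15.6 and 15.3. Esrrb, an orphan nuclear receptor, read 171 and 156 against 21.1 and 16.4. Each of these was far apart between groups and close between replicates. The call of Esrrb was lost without EpiSC replicate 2 and without either epiblast array, and that of Tcl1 was lost in the same 3 settings.

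The risers were Klf2, Socs3, Stat3, Klf4 and Tfcp2l1. Socs3, the feedback inhibitor of Stat3, read 597 and 649 in EpiSCs and 46.2 and 21.5 in the epiblast, 19.8-fold higher (4.30 ± 0.51, adjusted p = 0.00065). Stat3 itself read 540.2 and 839 against 135 and 103 (5.72-fold). Klf2, a Krüppel-like factor, read 581 and 153 against 16.3 and 8.77. All EpiSC arrays of these genes lay above all epiblast arrays. Klf4 and Tfcp2l1 stayed near the filter level in EpiSCs, at 26.0 and 26.8 and at 46.3 and 29.8. Their calls were lost without epiblast replicate 1, and that of Tfcp2l1 also without either EpiSC array. The differences depended on the treatment of low values: with values raised to the filter level Klf4 went from 2.15 to 0.13 and Tfcp2l1 from 1.77 to 0.63, and neither was called. Neither was called with log2(intensity + 16) (0.94 and 0.97) or with the 4 arrays alone, nor Klf4 by the probe set highest on amplified arrays (0.76), nor Tfcp2l1 by the mean of probe sets (0.50), with centring or with no filter. Of the list 3 to 5 genes were higher and 4 to 6 lower without single arrays.

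Most markers of the postimplantation epiblast had lower values in EpiSCs, though fewer passed the test. Of 19 tested, 6 fell, 2 rose, and 17 had a negative sign, with a median of -0.99. Fgf5, the classical marker of the egg-cylinder epiblast, read 557 and 398 in EpiSCs and 824 and 872 in the epiblast (-0.85 ± 0.30, adjusted p = 0.106). Otx2, a homeobox factor of the anterior epiblast, read 134 and 1313 in EpiSCs and 841 and 1183 in the epiblast, so the EpiSC arrays spanned the epiblast values. Pou3f1 (Oct6) fell from 3012 and 3382 to 998 and 515 (-2.15 ± 0.56, adjusted p = 0.0336), and Sox3 fell from 1682 and 1053 to 386 and 108. The call of Pou3f1 was lost without EpiSC replicate 2 and without either epiblast array, and that of Sox3 without epiblast replicate 1. A second probe set of Sox3 differed by 0.67. Wnt8a rose, from 19.6 and 35.0 to 311 and 103, and Fst rose 3.48-fold, a call lost with any 1 of the 4 arrays left out. Sall2 fell 2.39-fold, with a call lost without EpiSC replicate 2 and without either epiblast array. Without a given array 2 to 6 genes of the list were called lower.

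**Figure D4:**
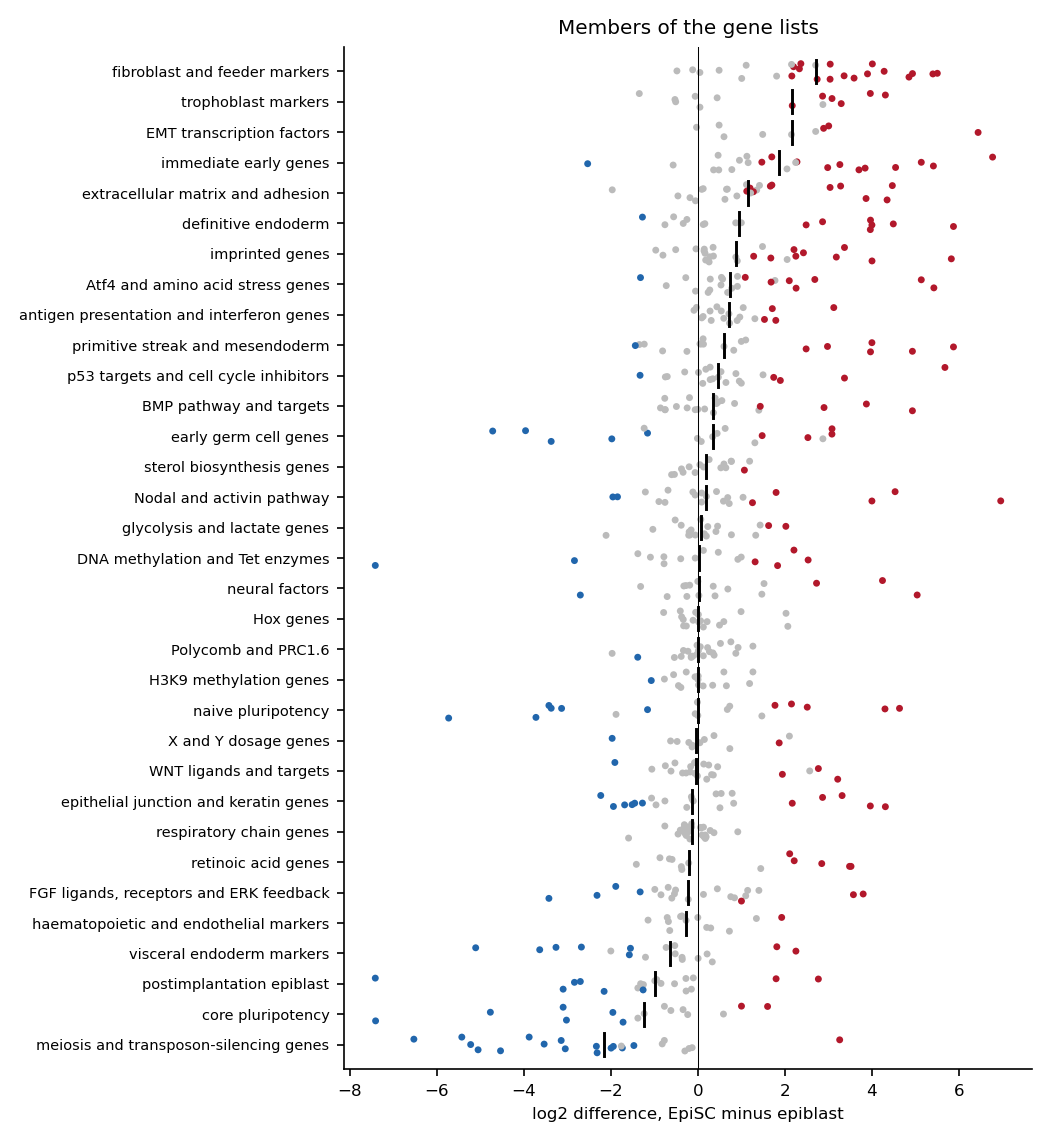
Log2 difference, EpiSC minus epiblast, for each tested member of 33 gene lists, ordered by the list median (black bars). Red and blue points were called higher and lower in EpiSCs and grey points were not called; the meiosis list has the lowest median and the fibroblast list the highest.

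Genes of meiosis and transposon silencing had 15 falls, the highest number of the 33 lists. Of 22 tested, 15 fell and 1 rose, and 21 had a negative sign, with a median of -2.16. These genes act later in germ cells, and their promoters are a textbook case of repression by DNA methylation and by the E2F6 and MGA complex PRC1.6. The windows of the 4 largest falls of the list with a RefSeq promoter (GRCm38.p6, 250 bases before to 50 after the annotated start, written 5′ to 3′ on the strand of the gene) are shown because they share 2 short motifs. Capitals mark CACGTG, the E-box bound by MAX partners, and TCCCGC or its complement GCGGGA, the core of E2F sites. The windows lie at chr10:88459337-88459636 (+) for Sycp3, chr3:95559427-95559726 (+) for Hormad1, chr1:166238695-166238994 (-) for Mael and chr3:40708621-40708920 (+) for Slc25a31.
Sycp3: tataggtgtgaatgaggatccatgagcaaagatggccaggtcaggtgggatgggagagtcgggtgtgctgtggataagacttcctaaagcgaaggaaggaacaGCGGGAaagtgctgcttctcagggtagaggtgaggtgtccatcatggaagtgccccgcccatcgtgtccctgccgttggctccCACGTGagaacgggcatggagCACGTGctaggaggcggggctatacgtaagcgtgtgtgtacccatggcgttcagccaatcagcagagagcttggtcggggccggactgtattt
Hormad1: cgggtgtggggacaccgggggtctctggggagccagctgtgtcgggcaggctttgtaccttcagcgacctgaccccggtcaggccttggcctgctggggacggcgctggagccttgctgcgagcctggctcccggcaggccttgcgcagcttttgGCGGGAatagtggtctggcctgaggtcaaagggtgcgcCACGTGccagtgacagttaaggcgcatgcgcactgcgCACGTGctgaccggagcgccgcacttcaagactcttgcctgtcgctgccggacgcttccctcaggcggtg
Mael: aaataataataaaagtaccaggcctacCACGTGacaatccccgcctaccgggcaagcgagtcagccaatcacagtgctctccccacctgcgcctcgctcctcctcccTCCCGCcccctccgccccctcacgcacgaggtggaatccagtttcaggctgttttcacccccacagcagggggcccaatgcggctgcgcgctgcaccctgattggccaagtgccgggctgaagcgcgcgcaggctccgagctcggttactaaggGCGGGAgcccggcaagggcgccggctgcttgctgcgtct
Slc25a31: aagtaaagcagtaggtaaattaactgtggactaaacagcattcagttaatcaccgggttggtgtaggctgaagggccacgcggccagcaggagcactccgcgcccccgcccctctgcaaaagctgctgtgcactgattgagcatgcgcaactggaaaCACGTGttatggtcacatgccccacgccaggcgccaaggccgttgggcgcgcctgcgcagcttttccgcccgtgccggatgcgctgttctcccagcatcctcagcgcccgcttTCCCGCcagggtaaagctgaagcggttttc

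Each of the 4 windows held at least 1 copy of both motifs, and Sycp3 and Hormad1 held 2 E-boxes each. They contained 15, 24, 24 and 22 CpG dinucleotides in the order printed. Over the 13 fallen genes of the list with a window in the table, 10 held CACGTG and 10 held TCCCGC on either strand, and 8 held both. Over the 20 tested genes of the list with a window, called or not, 12 held CACGTG, 11 held TCCCGC and 8 held both. A link between the motifs and the falls was not tested. Of all 27025 genes in the table, 7.24% held the E-box, 20.02% the E2F core and 2.05% both, each counted on both strands in the same 300 bases and in the window listed first for a gene. Among the 12489 tested genes with a window the shares were 9.44%, 32.1% and 3.49%, and among the 328 genes called lower 12.8%, 34.8% and 6.71%. As searched, the 2 strings can overlap by 1 base. A match is a string in a window, and binding was not measured.

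Sycp3, a protein of the synaptonemal complex that joins homologous chromosomes, read 358 and 421 in the epiblast and 3.38 and 3.61 in EpiSCs (-6.53 ± 0.38, adjusted p = 1.95e-05). Hormad1, a checkpoint protein of the meiotic axis, read 172 and 189.7 against 2.68 and 2.06. Both genes were under the filter level on each EpiSC array, and their epiblast arrays agreed closely. Mael, a piRNA pathway protein, read 212 and 274 against 7.997 and 5.19. Slc25a31, the germ cell ADP/ATP carrier, read 159 and 122 against 1 on both EpiSC arrays. Dazl, a germ cell RNA-binding protein, read 121 and 78.2 against 1 on both. Ddx4 (Vasa), a helicase of germ granules, read 375 and 285 against 9.22 and 53.6, so EpiSC replicate 2 kept a measured level.

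In day 2 epiblast-like cells, made from embryonic stem cells, amplified arrays read 800.2 and 327 for Sycp3 and 473 and 439 for Mael. The unamplified EpiSC arrays read 21.4 and 20.4 for Sycp3 and 2.44 and 2.78 for Mael. The exception among the meiosis and transposon-silencing genes was Tdrkh, a piRNA trimming factor, which rose from 20.5 and 24.3 to 137 and 335. Without a given array between 10 and 14 genes of the list were called lower, and with the replicate block Sycp2 was added (adjusted p = 0.0417). Sycp3, Hormad1, Mael, Slc25a31, Dazl, Ddx4, Tex12, Tex19.1, Piwil2 and Rec8 were called without each, and calls of Sycp1 and Stag3 were lost without either epiblast array, those of Taf7l and Mov10l1 also without EpiSC replicate 2, and that of Rnf17 with any 1 of the 4 arrays left out.

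Early germ cell genes went both ways: 4 of 17 rose and 5 fell. With the replicate block 6 rose and 6 fell, Ifitm3 (adjusted p = 0.0484), Rhox6 (0.0481) and Lin28a (0.0461) being added. The counts were 1 to 5 higher and 4 to 6 lower without single arrays. Stk31, a Tudor-domain kinase, fell from 118 and 103 to 2.26 and 2.08 (-4.72 ± 0.26), and Rhox5, an X-linked homeobox gene of the reproductive tract, fell 15.6-fold, from 1762 and 1458 to 130.3 and 81.2. Dnd1, an RNA-binding protein that germ cells need to survive, fell from 77.5 and 80.5 to 25.7 and 15.6. Prdm1 (Blimp1), a repressor that starts the germ cell programme and also acts in endoderm, rose from 18.3 and 7.77 to 99.9 and 103 (3.08 ± 0.43, adjusted p = 0.0014). The groups did not overlap for any of these 4, and their calls held without each array. Rhox9 and Kit also rose, with calls lost without either epiblast array, for Rhox9 also without EpiSC replicate 1 and for Kit without EpiSC replicate 2, and Ifitm1 rose with a call lost without epiblast replicate 2.

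**Figure D5:**
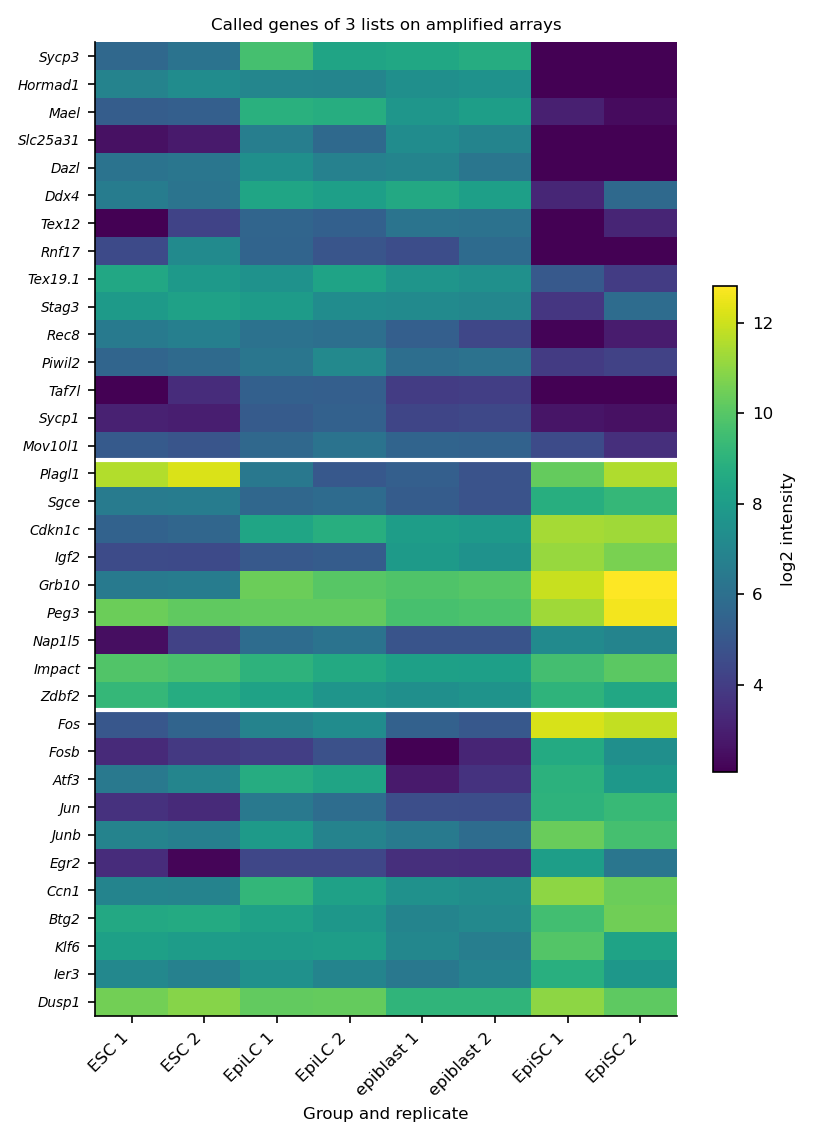
Log2 intensity (colour) on amplified arrays of embryonic stem cells (ESC), day 2 epiblast-like cells (EpiLC), epiblast and EpiSCs. White lines part the 15 fallen meiosis and transposon-silencing genes, the 9 imprinted genes called higher and the 11 immediate early genes called higher; both EpiSC columns lie below both epiblast columns in the top block and above them in the lower blocks, and the ESC columns exceed them for Plagl1.

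Of 16 tested DNA methylation genes, 2 fell and 4 rose. Dnmt3a, a de novo methyltransferase, fell 7.15-fold, from 2349 and 2982 in the epiblast to 275 and 499.7 (-2.84 ± 0.30, adjusted p = 0.000291). Dnmt3b read 3781 and 4546 in EpiSCs and 10282 and 11309.9 in the epiblast (-1.38 ± 0.43, adjusted p = 0.0662, and 0.0275 in the fit that blocks on replicate number, where it was called). With Dnmt3l at background, all 3 genes of the de novo machinery had lower levels on each EpiSC array than on each epiblast array. Arrays were separated in this way, in either direction, in 49.1% of all tested genes and in all called genes. The separation thus describes these genes and adds no support. A probe set of Dnmt3a other than the brightest differed by 0.13. The maintenance genes Dnmt1 and Uhrf1 were not called. Mbd2, a reader of methylated DNA, rose 4.63-fold, from 55.0 and 47.8 to 226 and 249.9. Gadd45a rose from 115 and 105 to 490.2 and 316, and Gadd45b from 20.1 and 15.4 to 119 and 87.7. The rise of Uhrf2 was lost without EpiSC replicate 2 and without either epiblast array. Among 23 Polycomb genes only Cbx2 was called, lower in EpiSCs, and among 16 genes of H3K9 methylation only Cbx1, lower. Epop was called lower as well with the replicate block (adjusted p = 0.0235). Both of these calls were lost without either epiblast array, that of Cbx2 also without EpiSC replicate 2, and 4 Polycomb genes were called higher without EpiSC replicate 1.

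Imprinted genes, which are read from the maternal or the paternal copy alone, were raised where they changed. Of 25 tested, 9 rose, none fell by limma (2 at an unadjusted p under 0.05), and 21 had a positive sign, with a median of 0.87. Plagl1 (Zac1), a zinc finger growth suppressor, read 1238 and 2997 in EpiSCs and 40.1 and 28.6 in the epiblast, a 56.9-fold difference (5.83 ± 0.54, adjusted p = 0.000145). Sgce, a sarcoglycan, read 448 and 594 against 37.0 and 27.9 (16.1-fold). Cdkn1c (p57), a cell cycle inhibitor, read 2628 and 2483 against 266 and 229 (10.4-fold). Igf2, a fetal growth factor, read 2278 and 1633 against 240.4 and 187 (9.10-fold). In each case both EpiSC arrays exceeded both epiblast arrays by more than the replicates differed. Grb10, Peg3 and Impact rose 5.39-fold, 4.77-fold and 3.20-fold. Between 7 and 12 genes of the list were called higher without a given array, and Nnat as well with the replicate block. Calls of Nap1l5 and Zdbf2 were lost without either epiblast array, that of Nap1l5 also without EpiSC replicate 2 and that of Zdbf2 also without EpiSC replicate 1. Alleles were not measured.

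Nodal and activin signalling keeps EpiSCs pluripotent, and 3 of its secreted inhibitors were far higher than in the embryo. Among ligands and convertases, Nodal itself read 87.1 and 65.1 in EpiSCs and 127 and 52.3 in the epiblast (-0.11 ± 1.17), Pcsk6 (Pace4), which processes Nodal, fell 3.60-fold, and Gdf3 fell 3.87-fold. Of the receptors and Smads, Smad3, a transducer, rose 2.39-fold, and Acvr1b and Smad4 were not called. Of the targets and antagonists, Lefty1 rose as given above, and Lefty2 read 1683 and 2338 against 67.4 and 108, a 23.2-fold rise (4.54 ± 0.36, adjusted p = 7.07e-05). Cer1 (Cerberus), an antagonist of Nodal, BMP and WNT, read 220.4 and 179 against 36.6 and 1. Both EpiSC arrays of Lefty1, Lefty2 and Cer1 stood above both epiblast arrays, and these calls held without each array. On other amplified arrays Lefty1 read 1361 and 1672 in embryonic stem cells and 2448 and 5430 in day 2 epiblast-like cells. A level far above the epiblast was thus not particular to EpiSCs for this gene. In all 5 of 21 tested genes rose and 2 fell. The convertase Furin also rose (adjusted p = 0.0249) and the receptor Acvr2b fell (0.0492) with the replicate block. The counts were 3 or 4 higher and 1 to 4 lower without single arrays. The call of Smad3 was lost without epiblast replicate 1, that of Gdf3 without either epiblast array, and that of Fst, which rose, with any 1 of the 4 arrays left out.

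FGF signalling through ERK is the second prop of EpiSCs. Of 21 tested genes, 3 rose and 4 fell, and with the replicate block the ERK inhibitors Dusp4 (adjusted p = 0.0354) and Spred1 (0.0200) rose as well. Over all tested genes 8.97% were called higher and 2.71% lower. Both counts ran from 1 to 5 without single arrays. Fgf4, the ligand made by pluripotent cells, fell 10.7-fold, from 507 and 584 to 39.2 and 65.6 (-3.42 ± 0.43, adjusted p = 0.000825). Fgfr3, a receptor, rose from 2.71 and 7.94 to 77.8 and 83.4. Fgfr1 rose 2.01-fold, from 522 and 529.6 to 1023 and 1086, at the threshold of 1. Its call was lost under quantile normalization (0.76), median centring (0.88), log2(intensity + 16) (0.98) and the mean of probe sets (0.97). It was also lost with the 4 arrays alone. The calls of Fgf4 and Fgfr3 held without each array. Etv4, Etv5 and Spry4, targets of ERK, fell 4.99-fold, 2.51-fold and 3.70-fold. The calls of these 3 and of Fgfr1 were lost without EpiSC replicate 2 and without either epiblast array, and that of Dusp5, which rose, without EpiSC replicate 1 and without epiblast replicate 1. Dusp6, another ERK target, read 80.7 and 179 in EpiSCs and 18.5 and 419 in the epiblast, so its arrays overlapped.

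Immediate early genes are switched on by growth factors and stress within minutes. Of 22 tested, 11 rose in EpiSCs, 1 fell and 10 were not called, with a median of 1.88. The replicate block gave 13 rises, Nr4a1 (adjusted p = 0.00279) and Zfp36 (0.0369) in addition. Fos read 4648 and 3623 in EpiSCs and 42.7 and 32.7 in the epiblast, a 109.9-fold difference (6.78 ± 0.32, adjusted p = 8.57e-06). Its partner Jun read 522 and 641 against 25.2 and 24.3 (23.4-fold), and Junb read 1311 and 800.1 against 87.0 and 58.1 (14.4-fold). Fosb read 395 and 174 against 1 and 8.95, and Atf3, a stress-induced repressor, read 497 and 223 against 7.11 and 12.5. Egr1, which was not on the list but among the 12 largest rises, read 2063 and 1651 against 25.3 and 16.5. Like all called genes, these were separated between the groups, and none of their calls was lost without an array. Amplified arrays of day 2 epiblast-like cells read 887 and 854 for Egr1 and 116 and 155 for Fos. Those of embryonic stem cells read 12.1 and 3.00 for Egr1 and 31.6 and 46.1 for Fos.

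Among the other risers of the list, Egr2, Btg2 and Ccn1 also held without each array, Klf6 and Dusp1 were lost without epiblast replicate 2, and Ier3 without either epiblast array. Myc, which is induced by growth factors in many cells, went the other way, from 506 and 500.4 to 122 and 62.0 (-2.53 ± 0.39, adjusted p = 0.00277). Srf, Jund and Fosl2 were not called. A second probe set of Fosl2 differed by 4.30. Without a given array 8 to 15 genes of the list were called higher. On unamplified EpiSC arrays Fos read 584 and 599 and Junb 607 and 688, but Fosb read only 12.6 and 10.5. Handling of cells and embryos before lysis is not described in the sources used here, and its part in these levels was not tested.

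In the BMP pathway 4 of 21 genes rose and none fell by limma (1 at an unadjusted p under 0.05), and the ligand Bmp7 rose with the replicate block (adjusted p = 0.0236). Single arrays left out gave 3 to 5 higher. The antagonist Chrd (Chordin) read 473 and 1033 in EpiSCs and 23.1 and 22.6 in the epiblast, at least 29.1-fold higher (4.94 ± 0.38, adjusted p = 6.12e-05). The ligand Bmp2 rose from 22.8 and 12.5 to 220.1 and 279, and the target Id4 rose 7.48-fold. All 3 were measured well above the filter level in EpiSCs, and their calls held without each array. Bmp4, the ligand that starts germ cell fate in the embryo, read 148 and 203 against 235 and 179. The call of Bmpr2 was lost without EpiSC replicate 2 and without either epiblast array. In the WNT list 3 of 22 genes rose, Dkk1, Wnt8a and Sfrp1, and Sfrp2 fell. For both lists the shares over all tested genes were 8.97% higher and 2.71% lower. The receptor Fzd7 fell as well with the replicate block (adjusted p = 0.00955), and 0 to 4 genes were lower without a given array. Dkk1, an inhibitor of WNT receptors, rose 9.30-fold, from 98.0 and 50.6 to 578 and 741, whereas the target Axin2 was not called. The call of Sfrp1 was lost without EpiSC replicate 2 and epiblast replicate 2, and that of Sfrp2 without EpiSC replicate 2 and either epiblast array.

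Of 13 retinoic acid genes 5 were higher and none lower by limma (2 at an unadjusted p under 0.05), with a median difference of -0.21. Rarg, a receptor, was called lower with the replicate block (adjusted p = 0.00897), and 2 to 5 genes were higher and 0 to 2 lower without a given array. Cyp26a1, which degrades retinoic acid, read 2124 and 5735 against 373 and 247 (11.5-fold). Rdh10, which makes its precursor, read 964 and 729 against 122 and 111 (7.21-fold). Crabp1, its binding protein, rose 11.2-fold, a call lost without epiblast replicate 2. Calls of Dhrs3 and Aldh1a2 were lost without either epiblast array, that of Dhrs3 also without EpiSC replicate 2 and that of Aldh1a2 also without EpiSC replicate 1. The groups did not overlap in Cyp26a1 or Rdh10, whose calls held without each array.

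Of 19 tested genes of the primitive streak and mesendoderm, the first cells to leave the epiblast at gastrulation, 6 rose in EpiSCs, 1 fell and 12 were not called. The risers were Foxa1, Chrd, Cer1, Foxa2, Lhx1 and Gsc. Foxa2, a pioneer factor of endoderm and node, read 731 and 618 in EpiSCs and 44.3 and 41.5 in the epiblast, 15.7-fold higher (3.97 ± 0.31, adjusted p = 6.53e-05). Its relative Foxa1 read 1090.4 and 608 against 22.1 and 8.66. Lhx1, an organiser homeobox factor, read 219 and 605 against 44.5 and 47.7, and Gsc (Goosecoid) read 133 and 123 against 17.8 and 29.0. EpiSC and epiblast arrays were separated in all 4, and the 6 rises held without each array. Eomes read 483 and 189 against 588 and 1006 (-1.35 ± 0.42, adjusted p = 0.0653, and 0.0433 in the blocked fit). Mixl1 read 37.2 and 20.8 against 31.2 and 76.1. Evx1, a posterior factor, was the only gene of the list called lower by limma, with a call lost without EpiSC replicate 2 and either epiblast array. Eomes, Msgn1 (adjusted p = 0.0347) and, upwards, Sox17 (0.0424) were called as well with the replicate block, which made 7 higher and 3 lower. Brachyury was not analysed here.

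In the endoderm list 7 of 16 genes rose, and Sox17 (0.0424 with the replicate block) and Hhex were not called. This list shares members with that of the primitive streak, Foxa1 and Sox17 among them, so their counts are not separate results. Trh, the precursor of thyrotropin-releasing hormone, read 3197 and 1695 against 153 and 69.8, a 22.6-fold rise. Cldn6, a tight junction gene, fell, a call lost without EpiSC replicate 2 and either epiblast array. Among 17 neural genes Sox1, Fabp7 and Hesx1 rose and Sox3 fell, and Nes rose with the replicate block (adjusted p = 0.00556). The shares over all tested genes were 8.97% higher and 2.71% lower. Sox1, an early neural plate factor, read 149.6 and 128 against 1.70 and 1, but the probe set of this gene that was highest on amplified arrays differed by -1.27, so its direction depends on the probe set. No Hox gene of 18 passed the test in limma (1 at an unadjusted p under 0.05). Hoxb1 passed with the replicate block (adjusted p = 0.0289), and with EpiSC replicate 2 left out 1 did.

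The visceral endoderm is the layer that wraps the epiblast in the embryo. Of 18 tested markers, 6 were lower in EpiSCs, 2 were higher and 10 were not called. The replicate block gave 8 lower, Apom (adjusted p = 0.0448) and Dab2 (0.0216) in addition, and with the 4 arrays alone only 1 was lower. Cubn, an endocytic receptor of that layer, read 640.3 and 199 in the epiblast and 12.1 and 8.81 in EpiSCs (-5.11 ± 0.56, adjusted p = 0.000378). Amn, its partner, read 592 and 148 against 24.8 and 22.8. Ttr, a carrier of thyroid hormone, read 558 and 71.4 against 22.6 and 19.13, and Apoa1 read 612 and 93.8 against 45.2 and 31.1. Epiblast replicate 1 was at least 3-fold above replicate 2 in all 4. The summed intensity of the 10 defining markers was 3276 and 1115 on the epiblast arrays and 1060 and 1032 on the EpiSC arrays. Among these, the probe set used for Afp was under the filter level on 3 of the 4 arrays and read 24.4 on epiblast replicate 1, while other Afp probe sets above the filter level differed by -3.96 to -3.41. Hnf4a read between 61.6 and 67.4 on all 4, and its probe sets ranged from -1.87 to 0.53. The part of visceral endoderm cells in these differences was not tested. In bulk RNA fewer cells of a type and less RNA per cell cannot be told apart. The call of Ttr was lost without EpiSC replicate 2, that of Apoa1 without EpiSC replicate 2 and epiblast replicate 1, and those of Ttpa and Lrp2 without either epiblast array, for Lrp2 also without EpiSC replicate 1. Rbp4, which rose, lost its call without either EpiSC array and without epiblast replicate 2, and Amot without EpiSC replicate 2 or epiblast replicate 2. Without a given array 3 to 5 genes were called lower.

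Genes of fibroblasts and feeder cells had the highest median of the 33 lists. Of 25 tested, 16 rose and none fell by limma (0 at an unadjusted p under 0.05), with a median of 2.71. Col3a1, a fibrillar collagen, read 826 and 1274 in EpiSCs and 22.9 and 22.1 in the epiblast, at least 42.7-fold higher (5.51 ± 0.41, adjusted p = 5.52e-05). Col1a2 read 845 and 769 against 45.3 and 64.0 (15.0-fold), Postn (periostin) 123 and 258 against 1 on both, and Lum (lumican) 120.2 and 177 against 5.48 and 4.62. Vim, the intermediate filament of mesenchyme that many cultured cells express, read 10026 and 7719.5 against 742 and 715 (12.1-fold). No array overlapped between groups in these 5 and replicates lay far closer to each other than to the other group.

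Of the 11 defining fibroblast markers, 6 were called higher: Col1a2, Col3a1, Dcn, Lum, Postn and Pdgfrb. The summed intensity of the 11 was 3164 and 3337 on the EpiSC arrays and 378 and 373 on the epiblast arrays. Col1a1 read 204 and 73.3 against 30.5 and 39.8 (adjusted p = 0.0611, and 0.0433 with the replicate block), Twist2 read 225 and 69.3 against 25.6 and 14.2 (adjusted p = 0.119, and 0.00637 with the replicate block), and Thy1, Prrx1 and Tbx15 were not called. Mmp2 passed with the replicate block (adjusted p = 0.0264). A probe set of Prrx1 other than the brightest differed by 4.04. The part of feeder cells in these levels was not tested. Between 14 and 16 genes of the list were called without a given array, and calls of Pdgfra and Dcn were lost without EpiSC replicate 2 and either epiblast array. For Dcn the probe set highest on amplified arrays differed by -0.42.

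Matrix and adhesion genes rose in 10 of 24 cases and fell in none by limma (1 at an unadjusted p under 0.05), among them Fn1 (fibronectin), at 6678 and 4898 against 626 and 771, Vtn (vitronectin), at 670.3 and 104 against 11.1 and 12.7, and Cd44, a hyaluronan receptor, at 594 and 223 against 18.7 and 16.9. Vtn, Cd44, Bgn, Timp1 and Fn1 were called without each array. Calls of Nid1, Itgav, Itgb1 and Lama5 were lost without either epiblast array and under quantile normalization, those of Itgav, Itgb1 and Lama5 also without EpiSC replicate 2 and those of Nid1 and Itgb1 also without EpiSC replicate 1. That of Sparc was lost without epiblast replicate 2 and under quantile normalization. Without a given array 5 to 9 genes were called higher and 0 or 1 lower, and under quantile normalization 5 higher and 1 lower. Col4a2 (adjusted p = 0.0419) and Nid2 (0.00467) rose as well and Lama1 fell (0.0145) with the replicate block.

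Of 23 tested epithelial junction and keratin genes, 5 rose (Krt7, Krt8, Krt18, Krt19 and Dsp), 6 fell and 12 were not called. Singly leaving out arrays gave 4 to 7 higher and 3 to 7 lower. Krt8 read 8475 and 6553 in EpiSCs and 423 and 332 in the epiblast, 19.9-fold higher (4.31 ± 0.36, adjusted p = 9.37e-05), and its partner Krt18 read 8055 and 7483 against 1737 and 1708 (4.51-fold). Krt19 rose 15.6-fold, and Dsp (desmoplakin) 9.98-fold, from 154 and 132 to 1733 and 1169. Each of these 4 was called without each array, and Krt7 was lost without epiblast replicate 2. The 6 falls were Ocln (occludin), Marveld3, Cldn7, Cldn6, Crb3 and Ovol1. Cldn7, a claudin, fell 3.21-fold, from 1809 and 1854 to 771 and 422, and Marveld3 fell 3.84-fold. Crb3, Cldn7 and Marveld3 held without each array, and all 6 falls were lost with the 4 arrays alone. Ocln lost its call without EpiSC replicate 2 and epiblast replicate 1, Ovol1 without either epiblast array, and Cldn6 without EpiSC replicate 2 and either epiblast array. Esrp1, a splicing factor of epithelia, fell with the replicate block (adjusted p = 0.00858). Cdh1 (E-cadherin) read 2953 and 1483 against 3727 and 4454 (-0.96 ± 0.30). Cdh2 (N-cadherin) read 14.1 and 496 in EpiSCs and 102 and 83.7 in the epiblast, so its direction turns with the EpiSC array used.

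Of 9 transcription factors of the epithelial to mesenchymal transition 3 rose, and Twist2 (adjusted p = 0.00637) and Tcf4 (0.0291) as well with the replicate block. Zeb1, a repressor of E-cadherin, read 288 and 465 against 1 on both epiblast arrays, at least 15.2-fold, and its call held without each array. Other probe sets of Zeb1 above the filter level reached down to a difference of -0.46. Snai2 read 15.7 and 61.9 in EpiSCs and Foxc2 92.04 and 12.95, so each passed the filter level on a single EpiSC array. Both calls were lost without either epiblast array, that of Snai2 also without EpiSC replicate 2 and that of Foxc2 also without EpiSC replicate 1. For Snai2 the probe set highest on amplified arrays differed by -0.37. Snai1 was not called. Of 13 trophoblast genes 6 rose, 4 of which were Krt7, Krt8, Krt18 and Krt19, and with the replicate block Rhox6 rose (adjusted p = 0.0481) and Eomes fell (0.0433). Trophoblast genes called higher numbered 3 to 7 without single arrays. Plac1 read 201 and 39.0 against 8.61 and 9.42, and its call and that of Rhox9 were lost without EpiSC replicate 1 and either epiblast array. Of the defining trophoblast markers, Elf5, Esx1 and Gata3 were under the filter level on all 4 arrays, Cdx2 read between 1.70 and 29.7, and Ascl2 read 173 and 141 against 216 and 228. The 6 defining markers on the array summed to 420 and 194 on the EpiSC arrays and 270 and 274 on the epiblast arrays. Among 13 blood and vessel genes Cd68, a lysosomal protein of macrophages, was called higher, at 68.6 and 73.6 against 16.8 and 20.7. Tek, an endothelial receptor, was called lower with the replicate block (adjusted p = 0.0300), and 1 gene was lower under quantile normalization.

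Stress and cell cycle genes changed in part, where 8.97% of all tested genes were called higher and 2.71% lower. Of 22 genes of the Atf4 pathway, which answers amino acid shortage, 7 rose and 1 fell. Nupr1, a stress-induced chromatin protein, read 629 and 329.5 against 12.3 and 9.09 (5.43 ± 0.38), and Asns (asparagine synthetase) rose 3.22-fold, from 1143 and 1261 to 4412 and 3375. Both calls held without each array. Ddit3 (Chop) rose 4.30-fold, a call lost without epiblast replicate 2, as were those of Vldlr and Slc7a3. The call of Psph was lost without EpiSC replicate 1 and either epiblast array. Cdkn2b (p15), an inhibitor of cyclin D kinases, read 543 and 205 against 4.67 and 9.04 (5.68 ± 0.48), and Ccne1 (cyclin E1) fell 2.51-fold, a call lost without epiblast replicate 2. Perp rose 3.73-fold, and Rb1 rose with a call lost without epiblast replicate 1. With the replicate block Ddit4 (adjusted p = 0.0149) and Cdkn1a (0.00120), the p53 target p21, rose as well. The Atf4 list had 4 to 9 genes higher without a given array, and 3 to 7 of 21 p53 and cell cycle genes were higher.

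B2m, the light chain of MHC class I, read 2656 and 1955 in EpiSCs and 264 and 258 in the epiblast (8.74-fold, adjusted p = 0.000291). H2-K1, a class I heavy chain, rose 3.28-fold. Both calls held without each array, while those of Tap1 and H2-D1 were lost without either epiblast array, that of H2-D1 also without EpiSC replicate 2 and under quantile normalization, and 4 of 19 genes of the list rose in all, 2 to 7 without a given array and 5 with the replicate block, Ifitm3 (adjusted p = 0.0484) in addition. Of 21 glycolysis genes Slc2a3 (Glut3) rose 3.09-fold, from 3231 and 2806 to 9423 and 9196, and Car9 rose with a call lost without EpiSC replicate 2 and either epiblast array. Ldha was not called. For the lists of this paragraph the shares over all tested genes were 8.97% higher and 2.71% lower. With the replicate block Aldoc rose (adjusted p = 0.0354) and Hk2 fell (0.0290), and 1 to 4 genes were higher without a given array. None of 25 respiratory chain genes passed the limma test (1 at an unadjusted p under 0.05), and 2 were called lower without EpiSC replicate 1. Atp5g1 was called lower with the replicate block (adjusted p = 0.0182). Hmgcs1 was the only called gene of 16 in sterol synthesis, higher in EpiSCs, and Sc5d rose with the replicate block (adjusted p = 0.00838). The call of Hmgcs1 was lost without EpiSC replicate 2, without either epiblast array and under quantile normalization.

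Xist, the RNA that coats the inactive X chromosome of female cells, read 18.7 and 21.6 in EpiSCs and 97.9 and 63.3 in the epiblast (-1.97 ± 0.36, adjusted p = 0.0065), a call lost without epiblast replicate 1. Its probe sets disagree, since the probe set highest on amplified arrays differed by 0.23. Eif2s3y, on the Y chromosome, read 649 and 2507 against 348 and 349.5 (1.87 ± 0.50), a call lost without EpiSC replicate 2, without either epiblast array and under quantile normalization. Kdm5d, also on the Y chromosome, read 233 and 237 against 89.0 and 33.4 (adjusted p = 0.0625, and 0.00355 with the block). The sex of the samples is not given in the labels. Genes called lower made up 5.56% of 504 tested genes on the X chromosome, and between 1.93% and 3.93% on each autosome. Genes called higher made up 9.33% on the X chromosome, and between 6.87% and 11.6% on each autosome. The median difference of X-linked genes was 0.11, against 0.06 over all tested genes, so X-linked genes were not lower as a whole.

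Genes were also ranked by their difference between the EpiSC arrays, and their values are given as a description. Of the 8 genes furthest above replicate 1 on replicate 2, Ccdc18 read 1 and 309, Cdh2 14.1 and 496, Pank4 14.4 and 509 and Kif20b, a mitotic kinesin, 26.2 and 811. The unamplified EpiSC arrays read 381 and 410.3, 1143 and 1416, 504 and 512, and 811 and 939 for these genes, close to the higher array or above it. Prex2, Rgs11, Atp10d and Tagln3 were the others, and of these Rgs11 read 13.97 and 10.5 and Tagln3 1 on both without amplification, far below the higher array. Prex2 and Tagln3 were also higher on replicate 2 of the epiblast arrays, at 1 and 205 and at 1.48 and 114. Of the 8 genes furthest below, Kcnk10, a potassium channel, read 437 and 1, Sp5, a WNT target, 887 and 28.8, and Nkx1-2 332 and 10.8, and Epn1, Myh11, Scn2a, Arg1 and Nxnl1 followed. Arg1, which codes for arginase 1, was called higher in EpiSCs, with 299 and 17.7 against 1 on both epiblast arrays, and its call was lost without EpiSC replicate 1 and without either epiblast array.

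Between the epiblast arrays the 16 genes with the largest differences included targets of signalling pathways. Dusp6, a target of ERK, read 18.5 on replicate 1 and 419 on replicate 2, and Id2, a target of BMP, 9.29 and 102. Spink1, an endoderm-associated protease inhibitor, read 1050 and 50.4, and Tubb2a 78.2 and 1. Gsx1, Tcl1b4, Pcsk5 and Vax2 were also higher on replicate 2, and Rhbdl1, Ppwd1, Spic, Cd99, Grin3b and Rbmxl2 were higher on replicate 1.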

How the data were processed

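The authors deposited linear intensity values of Affymetrix mouse genome arrays, 1 column a sample. The software, background correction and normalization behind them were not given in the sources used here, and intensities ran from 1 to 17519. Probe sets with 1 gene symbol in the platform annotation (34945 of 45101) were kept, 932 with several symbols and 9211 with none were left out, and the probe set of highest mean log2 intensity over all 24 arrays stood for each of 18193 genes. Values were raised to a floor of 4.20, the 10th percentile of the table, and turned to log2. Genes above 24.04 on at least 2 of 12 amplified arrays were tested with limma 3.58.1 in R 4.3.3 (lmFit, eBayes with trend, 6 residual degrees of freedom, two-sided). In simulated data with 15608 genes the fit recovered 47% of genes changed by 1.5 and 79% of genes changed by 3 on the log2 scale, with 6 false calls. The simulated noise was independent between arrays, with 1 spread per gene for all groups. In the data 4.66% of genes differed at least 4-fold between the EpiSC arrays, against 0.794% between the epiblast arrays. How far the simulated recovery and false calls hold for the real comparison was not tested. Precision is limited by having 2 arrays a group.

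The labels give replicate numbers 1 and 2 in each group. Deviations of same-numbered arrays from their group means correlated above 0.1 in 15 of 15 pairs of groups (median 0.371, lowest 0.114, EpiSC and epiblast 0.367), so the numbers were taken to pair samples, from the data, and the numbers coincide with a shared prefix of the array names whose meaning is not stated. The main fit has no term for this pairing, and its counts and adjusted p-values are unpaired. Calls that the fit with the replicate block adds among the listed genes are given with each gene group.

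The comparison, 33 lists of 621 genes (558 tested) and the marker lists were chosen with earlier results of these data known. Genes were named by rule: the 12 largest rises and falls called without overlap of arrays, with provisional names passed over, members of the lists, and the 8 genes of largest rise and fall between the arrays of each group, again with provisional names passed over. Alternatives were another scaling, floor, pseudocount, filter, probe set rule or variance model, the 4 arrays alone, and each array left out. Promoter windows were read from the RefSeq table of GRCm38.p6.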

Additional observations from a re-analysis of the deposited data

How the results depend on the processing

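The count of 1823 called genes was 1594 to 1793 under centring, quantile normalization, a higher floor, log2(intensity + 16), no filter, both other probe set rules and no intensity trend. With the replicate block it was 2477, all 1823 among them, and with the 4 arrays alone it was 459. Leaving out single arrays gave 845 to 3444. Fewer samples enter in these last settings, and the cause of the rise to 3444 without EpiSC replicate 1 was not tested. Of 192 called genes among the 573 named or listed, 0 lost their call with the replicate block, which added 39 calls, 5 to 33 lost it in the settings of scaling, floor, filter, probe set or trend, 104 with the 4 arrays alone, and 14 to 64 without a single array, while 43 were gained without EpiSC replicate 1 and 32 without EpiSC replicate 2. The sign turned in 9 cases, whose cause was not tested. Cdh2 ran from -2.72 without EpiSC replicate 2 to 2.42 without EpiSC replicate 1. With the mean of probe sets Fosl2 became 1.87, Fbln2 2.12, Lama4 2.05 and Zeb2 1.05. With the probe set highest on amplified arrays Dcn became -0.42, Snai2 -0.37, Sox1 -1.27 and Xist 0.23. Levels under the filter level, on which 421 of the genes called higher and 171 of those called lower rest in 1 group, give only bounds of a fold. Of 682 called genes with several probe sets above the filter level, 160 had probe sets of both signs.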
